A study of Mus musculus with 143 samples.

Results

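Matrix metalloproteinases (MMPs), ADAMTS proteases and their inhibitors, the TIMPs, were followed in tumours of 11 syngeneic mouse models given an antibody against PD-1. Members were all rows of the deposited FPKM table (fragment counts scaled to transcript length and library size) whose Ensembl identifier has the mouse symbol Mmp, Adamts or Timp followed by digits and an optional letter. This gave 46 of 54232 genes, of which 23 were Mmp, 19 Adamts and 4 Timp genes. Of these, 37 reached FPKM 1 in at least 1 of 143 libraries. The other 9 never did and are counted only: Mmp7, Mmp17, Mmp20, Mmp21, Mmp24, Adamts3, Adamts17, Adamts18 and Adamts19.

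Tumour cells were injected under the skin of the right lower flank, and total RNA of whole tumours was sequenced after ribosomal RNA removal. In each model, 5 tumours came from mice given muDX400, a mouse antibody against the checkpoint receptor PD-1, and 5 from mice given an isotype control antibody of the mouse IgG1 class. Both antibodies were injected on days 11 and 15 after implantation, and the tumours were excised on day 19, 8 days after the first dose. A further 3 untreated tumours per model are labelled baseline, and the day they were taken is not given in the sources used here. All tumours grew from a transplanted cell line, and the labels give neither strain, sex nor age of the mice. The labels class CM3, MBT2 and MC38 as High responders, CT26, EMT6, MB49 and RENCA as Partial, and 4T1, B16F10, LL2 and TC1 as Resistant. CM3 and B16F10 are melanomas, MBT2 and MB49 bladder, MC38 and CT26 colon, EMT6 and 4T1 mammary, LL2 and TC1 lung and RENCA kidney tumour lines. Melanocyte markers summed to 5357 to 10370 FPKM over the libraries of CM3 and B16F10 at 8 days. The labels number the tumours of a group but do not say whether each came from its own mouse, so p-values measure the spread between these tumours.

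MMPs are secreted or membrane-bound zinc proteases that cut collagens, elastin, proteoglycans and many signalling proteins. Most are made as inactive proenzymes and are activated by other proteases, such as plasmin, furin or other MMPs. ADAMTS proteases cleave proteoglycans, trim procollagens or act on specific matrix proteins. TIMPs bind the active site of MMPs, and Timp3 also inhibits ADAM and ADAMTS proteases. In tumours these genes are expressed by cancer cells, fibroblasts, macrophages, neutrophils and endothelial cells, so a whole-tumour value mixes all of them. In bulk RNA, fewer cells of a type and less RNA per cell cannot be told apart.

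Several members lie side by side on chromosome 9 (GRCm38), from Mmp13 at position 7272514 to the end of Mmp7 at 7699585. The cluster holds Mmp13, Mmp12, Mmp1b, Mmp3, Mmp1a, Mmp10, Mmp8, Mmp27, Mmp20 and Mmp7. Upstream sequences of 5 of them are shown because MC38 tumours moved 2 up and 2 down on muDX400 and because RENCA tumours raised Mmp8. Each is the 150 bases before a RefSeq start on the + strand of GRCm38.p6, written 5′ to 3′. They lie at chr9:7272364-7272513 (Mmp13), chr9:7347224-7347373 (Mmp12, the second of its starts), chr9:7445672-7445821 (Mmp3), chr9:7502192-7502341 (Mmp10) and chr9:7558279-7558428 (Mmp8). Capitals mark TGAGTCA or its reverse complement TGACTCA, the binding motif of the AP-1 (Fos and Jun) transcription factors.
Mmp13: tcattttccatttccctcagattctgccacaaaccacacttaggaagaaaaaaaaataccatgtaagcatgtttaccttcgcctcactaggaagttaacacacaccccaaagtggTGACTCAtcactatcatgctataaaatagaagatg
Mmp12: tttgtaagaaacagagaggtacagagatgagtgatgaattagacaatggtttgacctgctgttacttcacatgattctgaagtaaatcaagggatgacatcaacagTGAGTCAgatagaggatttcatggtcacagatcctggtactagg
Mmp3: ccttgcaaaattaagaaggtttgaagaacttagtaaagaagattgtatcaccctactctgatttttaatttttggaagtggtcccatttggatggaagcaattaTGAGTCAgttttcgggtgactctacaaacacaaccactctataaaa
Mmp10: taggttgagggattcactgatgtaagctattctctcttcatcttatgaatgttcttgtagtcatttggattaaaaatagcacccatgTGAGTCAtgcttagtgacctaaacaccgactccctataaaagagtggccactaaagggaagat
Mmp8: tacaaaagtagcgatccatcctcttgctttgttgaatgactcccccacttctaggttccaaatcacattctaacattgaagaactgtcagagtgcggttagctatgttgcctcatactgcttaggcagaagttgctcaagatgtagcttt
The motif, searched on both strands, begins 35 bases before the start of Mmp13, 44 before that of Mmp12, 46 before that of Mmp3 and 63 before that of Mmp10. The Mmp12 window lies within the span of that gene and overlaps no exon of GENCODE M21. The Mmp8 window and that of the other Mmp12 start hold no motif. In windows of 250 bases before to 50 bases after a start, the motif occurs in 7 of the 35 promoters listed for 32 of the 46 members, and in 5.2% of the 32851 promoters of the table. All 7 belong to the chromosome 9 cluster, and the other genes are Mmp1a, Mmp1b and Mmp7. These letters describe the sequence and do not show that a factor binds there.

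The libraries had estimated depths of 9.96 M to 50.5 M fragments (median 21.1 M), read from the steps between low FPKM values. Their FPKM totals ran between 446984 and 885333, and mitochondrially encoded transcripts took 1.64% to 14.1%. A single CM3 library, the one labelled isotype replicate 4, stood apart from the other 4 isotype libraries of its model in macrophage and T cell markers. In these it lay within or above the range of the muDX400 libraries. Its macrophage markers summed to 1378 FPKM and its T cell markers to 63.7 FPKM. These sums were 807 to 1147 FPKM and 56.7 to 66.9 FPKM in the CM3 muDX400 libraries, and 414 to 575 FPKM and 14.3 to 24.7 FPKM in the other CM3 isotype libraries. In mast cell, adipocyte and melanocyte markers the library labelled isotype replicate 4 lay below the muDX400 range instead. Its mast cell sum was 47.65 FPKM, against 57.67 to 85.57 FPKM on muDX400 and 36.85 to 54.18 FPKM in the other isotype libraries. Whether its arm label is right cannot be told from the labels, and a CM3 difference that includes it has this limit. In MC38, muDX400 replicate 5 had an endothelial marker sum of 41.2 FPKM, against 88.7 to 136 FPKM in the other muDX400 libraries and 33.6 to 41.3 FPKM in the isotype libraries. In RENCA, muDX400 replicate 3 had an epithelial marker sum of 849 FPKM, against 83.2 to 177 FPKM in the other muDX400 libraries and 262 to 627 FPKM in the isotype libraries. Its fibroblast markers summed to 1398 FPKM, against 2763 to 5433 FPKM in the other muDX400 libraries. The comparisons of muDX400 with isotype in these models and the fits over all models are given with and without these 3 libraries.

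Across the isotype tumours, the most abundant members were inhibitors and the membrane protease Mmp14, which activates pro-Mmp2 at the cell surface. Timp1 or Timp2 had the highest mean of all members in 7 of the 11 models, Mmp9 in 2, Mmp14 in LL2 and Mmp12 in CM3. Timp2 was among the 5 highest members in all 11 models, Mmp14 and Timp1 in 10, Mmp2 and Mmp9 in 6, Mmp3 in 4 and Mmp12 in 3. Adamts1, Adamts14, Mmp10, Mmp11 and Timp3 were so in 1 model each. The isotype level differed between models for 32 of 32 members tested, where 99.2% of all genes tested did (limma moderated F test, adjusted p of 0.05 or less). This count does not set the members apart from other genes.

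**Figure D1:**
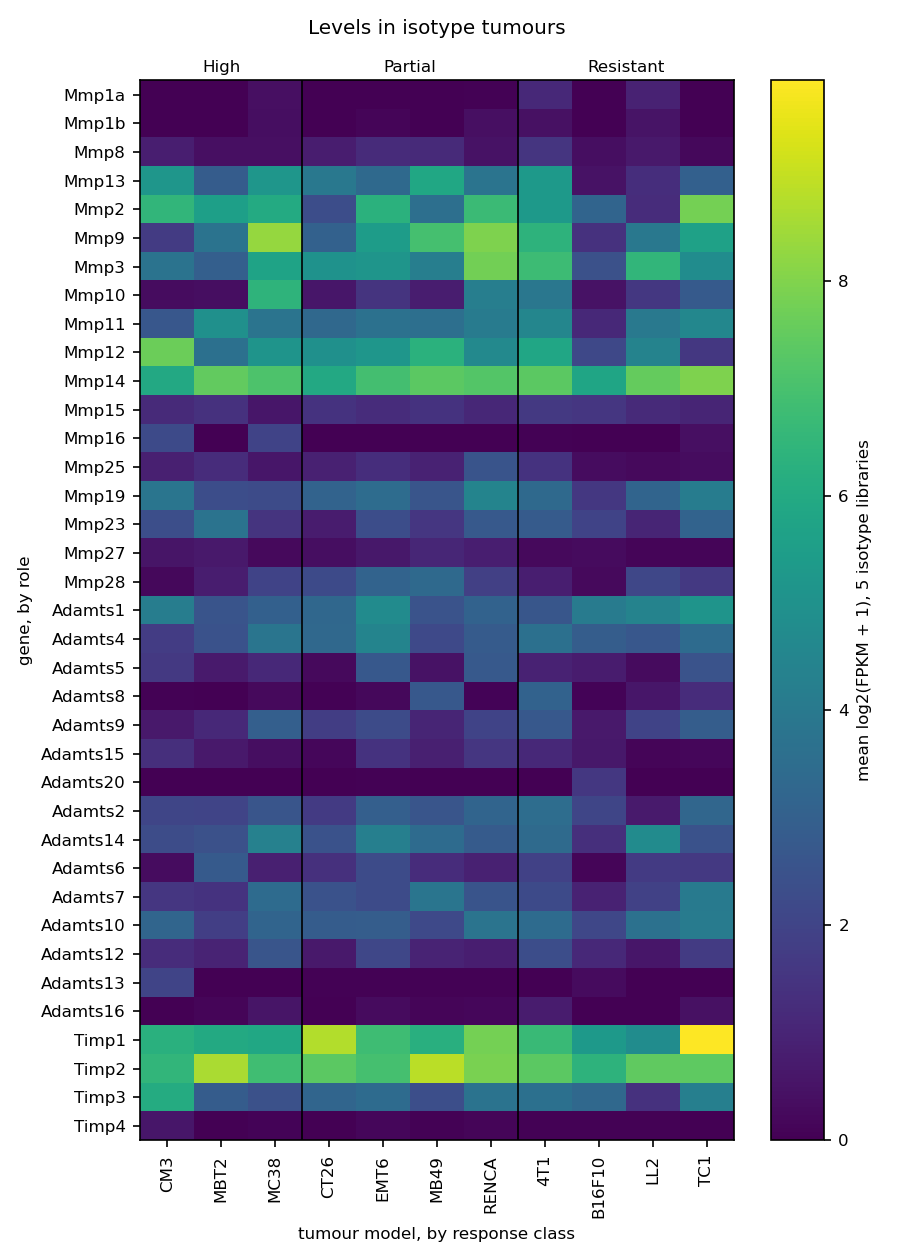
Mean log2(FPKM + 1) over the 5 isotype libraries of each model, for the 37 members that reached FPKM 1 in at least 1 library. Rows are genes ordered by role, columns are models ordered by response class, and lighter colours are higher levels; Mmp14, Timp1 and Timp2 are high in all 11 columns, and Timp1 is brightest in TC1.

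Among the inhibitors, Timp1, a secreted TIMP that is strongly induced by cytokines, averaged 933 ± 85.2 FPKM in TC1 (SD, n = 5) and 430 ± 50.6 FPKM in CT26. RENCA followed at 226 ± 48.8 FPKM, and LL2 was lowest at 27.0 ± 3.13 FPKM. The libraries of TC1, CT26 and RENCA did not overlap one another. EMT6, 4T1, CM3, MB49, MBT2 and MC38 followed with means of 110 to 59.7 FPKM, each overlapping its neighbour in this order. Timp2, which also takes part in pro-Mmp2 activation by Mmp14, was highest in MB49 (461 ± 49.9 FPKM) and MBT2 (389 ± 53.5 FPKM), whose libraries overlapped. It was lowest in B16F10 at 84.2 ± 16.5 FPKM. Timp3, which binds to the matrix, averaged 66.6 ± 13.5 FPKM in CM3 and 18.2 ± 2.95 FPKM in TC1, with no overlap, and 1.71 ± 0.641 FPKM in LL2. Timp4 reached FPKM 1 in 1 library of the series.

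Among the gelatinases, which digest denatured collagen and basement membrane collagen, Mmp2 was highest in TC1 and Mmp9 in MC38, and RENCA came second for both. Mmp2, typically made by fibroblasts, averaged 222 ± 13.7 FPKM in TC1 and 108 ± 31.2 FPKM in RENCA, and 1.78 ± 1.97 FPKM in LL2. Mmp9, made by neutrophils, macrophages, osteoclasts and some cancer cells, averaged 317 ± 23.5 FPKM in MC38. In RENCA its mean was 308 FPKM, but the 5 libraries ran between 99.7 and 690 FPKM and overlapped those of MC38. MB49 followed at 123 ± 13.1 FPKM, and B16F10 was lowest at 1.96 ± 1.29 FPKM. Mmp14 varied less than either: its means lay between 246 ± 5.16 FPKM in TC1 and 55.6 ± 13.0 FPKM in B16F10.

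The stromelysins, which cut proteoglycans and laminin and activate other MMPs, were not equally widespread. Mmp3 had an isotype mean of at least 10 FPKM in 9 of the 11 models, Mmp11 in 8 and Mmp10 in 3. Mmp10 averaged 86.8 ± 23.8 FPKM in MC38, which was 4.85 times the next mean, 17.9 ± 3.60 FPKM in RENCA, and the 2 models did not overlap. Mmp3 averaged 228 ± 76.6 FPKM in RENCA and 110 ± 24.8 FPKM in 4T1, whose libraries overlapped by their extremes, and 6.25 ± 4.48 FPKM in B16F10. Mmp12, the macrophage elastase, had its highest mean in CM3, where the 5 libraries held 322, 105, 108, 637 and 131 FPKM. MB49 came next at 79.0 ± 11.9 FPKM, below all 5 CM3 libraries, and TC1 was lowest at 2.09 ± 0.720 FPKM. Mmp13, the main interstitial collagenase of mice, averaged 57.7 ± 7.53 FPKM in MB49 and 0.421 ± 0.278 FPKM in B16F10. Mmp8, the collagenase stored in neutrophil granules, stayed low, at 1.86 ± 0.275 FPKM in 4T1 and 0.148 ± 0.0318 FPKM in TC1.

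Among the ADAMTS genes no isotype mean passed 34.0 FPKM, the value of the proteoglycanase Adamts1 in TC1. By a threshold of a mean of 10 FPKM and 5 times the second model, no member was restricted to a single model. Singled out after their values were seen, 2 members passed that ratio at lower levels. Adamts20, a gene required for melanoblast survival in mice, averaged 2.19 ± 0.909 FPKM in B16F10, against at most 0.0366 FPKM in any other model. CM3, the other melanoma, had 0.0056 FPKM. Adamts13, the von Willebrand factor protease, had 1.29, 9.60, 17.2, 0.369 and 0.920 FPKM in the 5 CM3 isotype libraries, so its CM3 mean rests on 2 libraries.

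As a description over 11 isotype model means, each principal member was set beside the genes of the marker and pathway lists with the most similar order of models. Mmp9 was closest to Ocstamp, an osteoclast fusion gene (Spearman rho 0.891), and to Mmp10 (0.855). Mmp8 was closest to the neutrophil receptor gene Cxcr2 (0.891) and the neutrophil gene Retnlg (0.864). Mmp2 was closest to Adamts5 (0.900) and the proteoglycan gene Bgn (0.818), and Mmp3 to Fn1, which encodes fibronectin (0.900), and to Mmp10 (0.827). Mmp13 was closest to Adamdec1 (0.945) and to its neighbour Mmp12 (0.855). Mmp12 was closest to the adipocyte genes Fabp4 (0.909) and Cidec (0.873), and Mmp14 to Mmp11 (0.809) and the collagen gene Col4a1 (0.764). Timp1 was closest to the AP-1 gene Fosb (0.818) and the cytokine gene Il11 (0.800), and Timp2 to Loxl3 (0.955) and Adamtsl3 (0.827). Timp3 was closest to the skeletal muscle genes Myh4 (0.909) and Ckm (0.809). In CM3, the model highest in Timp3, skeletal muscle markers summed to 965 FPKM in the library labelled isotype replicate 4. They summed to 0.633 to 1.26 FPKM in the other CM3 isotype libraries, so the CM3 mean of these markers rests on 1 library. The points share their libraries and are 11 model means only.

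Next, muDX400 tumours were compared with isotype tumours of the same model, the comparison named by the study design. Nearly all members that passed the test did so in MC38 and RENCA. Differences are given on the log2(FPKM + 1) scale with their standard error (SE), which understates changes of genes near FPKM 1. A member was called when its limma p-value, adjusted by Benjamini-Hochberg over all genes of that model, was 0.05 or less. Between 20 and 28 members were tested per model, and 18 of 276 member and model pairs were called, 15 higher and 3 lower. MC38 had 9 of 26 called against 27.3% of all genes (7 higher against 14.6%, 2 lower against 12.7%), RENCA 8 of 27 against 2.57% (7 higher against 2.28%, 1 lower against 0.284%), and CT26 1 of 23 against 0.339%. The other 8 models had none. Backgrounds there were 0.0802% in TC1 and 0% in 4T1, B16F10, CM3, EMT6, LL2, MB49 and MBT2. At an unadjusted p below 0.05, members of these 8 models are given beside all genes tested. TC1 held 8 of 26 members (817 of 12470 genes), 4T1 1 of 28 (601 of 12854) and B16F10 0 of 20 (351 of 11446). CM3 held 13 of 27 (3441 of 12945), EMT6 1 of 28 (538 of 12695) and LL2 3 of 22 (1973 of 11904). MB49 held 7 of 27 (1247 of 12412) and MBT2 7 of 22 (3597 of 12541).

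**Figure D2:**
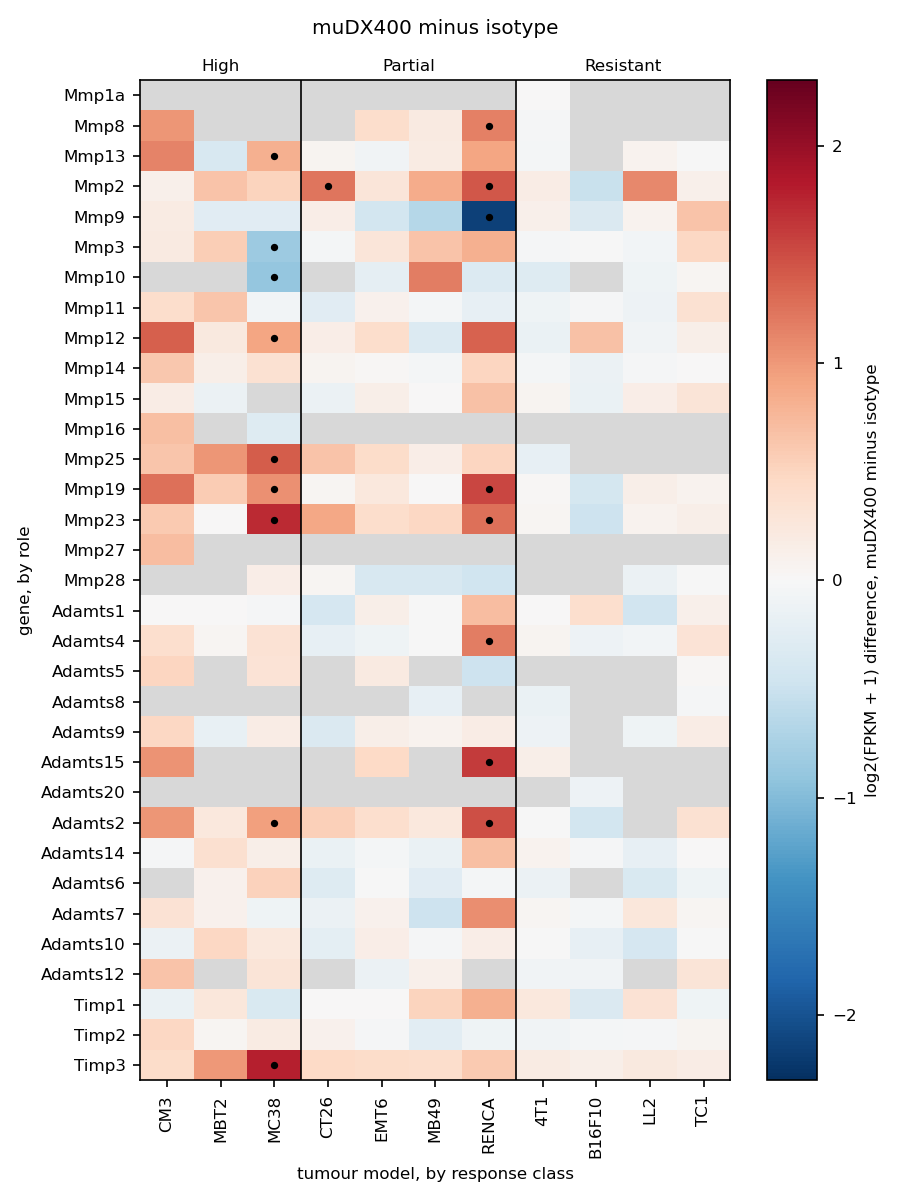
Difference in log2(FPKM + 1), muDX400 minus isotype, for each member tested (rows, by role) in each model (columns, by response class); red is higher and blue lower on muDX400, black dots mark calls at an adjusted p of 0.05 or less, and grey cells were not tested. Dots stand in MC38, RENCA and CT26 only, and the darkest blue cell is Mmp9 in RENCA, at −2.15.

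In MC38, 7 members rose and 2 fell. The risers were Timp3, Mmp25, Mmp23, Mmp19, Adamts2, Mmp12 and Mmp13, and those that fell were the stromelysins Mmp10 and Mmp3. The 9 of 26 called, or 18 of 26 with a positive difference, stand beside a transcriptome in which 27.3% of genes were called, so the number by itself does not set these genes apart. The median difference was 0.27 over the members and −0.06 over all genes tested.

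Timp3 held 22.2, 32.0, 20.8, 19.3 and 5.95 FPKM in the MC38 muDX400 libraries, against 3.87, 4.96, 2.88, 5.23 and 6.05 FPKM in the isotype libraries. Of the 5 muDX400 libraries, 4 lay above all isotype libraries and replicate 5 lay among them. The difference was 1.78 ± 0.35 log2 units (SE, n = 5 each; adjusted p = 0.0048). The other inhibitors did not pass: Timp1 stood at −0.35 ± 0.16 and Timp2 at 0.19 ± 0.12 log2 units. Nor did the gelatinase Mmp2 (0.52 ± 0.19, adjusted p = 0.060) and Mmp14 (0.35 ± 0.13, adjusted p = 0.068).

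Mmp25, a membrane-anchored MMP known from leukocytes, had 3.41, 3.37, 3.75, 2.86 and 1.64 FPKM on muDX400, against 0.477, 0.622, 0.245, 0.817 and 0.412 FPKM on isotype. The arms did not overlap, and the difference of 1.39 ± 0.17 log2 units had an adjusted p of 0.00093. Mmp19, which cuts basement membrane proteins, held 8.96, 13.0, 10.9, 7.83 and 5.08 FPKM on muDX400, against 3.31, 4.35, 2.77, 4.10 and 4.22 FPKM on isotype. It too had separate arms, with a rise of 1.05 ± 0.20 log2 units (adjusted p = 0.0045). Mmp23, a type II membrane MMP, had 10.1, 15.5, 13.4, 8.47 and 1.60 FPKM on muDX400, against 1.84, 1.73, 2.16, 1.59 and 1.63 FPKM on isotype. Replicate 5 again lay at the isotype level, and the rise was 1.72 ± 0.41 log2 units (adjusted p = 0.011). Adamts2, which removes the amino-terminal propeptide of fibrillar procollagens, rose by 0.94 ± 0.27 log2 units (adjusted p = 0.025), with 4.46 FPKM in that replicate and 9.73 to 16.7 FPKM in the other 4.

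The chromosome 9 genes moved in both directions in MC38, where 2 rose and 2 fell. The upstream sequences of all 4, shown above, hold the AP-1 motif. Mmp10 held 43.5, 47.4, 34.9, 39.0 and 66.3 FPKM on muDX400, against 85.3, 123, 75.8, 58.0 and 92.6 FPKM on isotype. It fell by 0.89 log2 units (SE 0.20; adjusted p = 0.010), with replicate 5 of muDX400 above the lowest isotype library. Mmp3 held 22.8, 45.3, 36.6, 21.7 and 22.6 FPKM on muDX400, against 58.2, 57.1, 65.3, 30.9 and 52.7 FPKM on isotype, a fall of 0.83 log2 units (SE 0.24; adjusted p = 0.027). Here the overlap came from isotype replicate 4.
Mmp12 had 30.5, 113, 59.4, 56.4 and 88.2 FPKM on muDX400, against 29.4, 40.1, 30.9, 32.3 and 34.8 FPKM on isotype, a rise of 0.91 ± 0.28 log2 units (adjusted p = 0.033). Mmp13 had 31.3, 93.4, 74.5, 56.3 and 79.6 FPKM on muDX400, against 35.7, 50.7, 31.3, 33.9 and 28.0 FPKM on isotype, a rise of 0.82 ± 0.26 log2 units (adjusted p = 0.039). In both genes muDX400 replicate 1 lay within the isotype range, unlike Timp3 and Mmp23, where it was replicate 5.

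**Figure D3:**
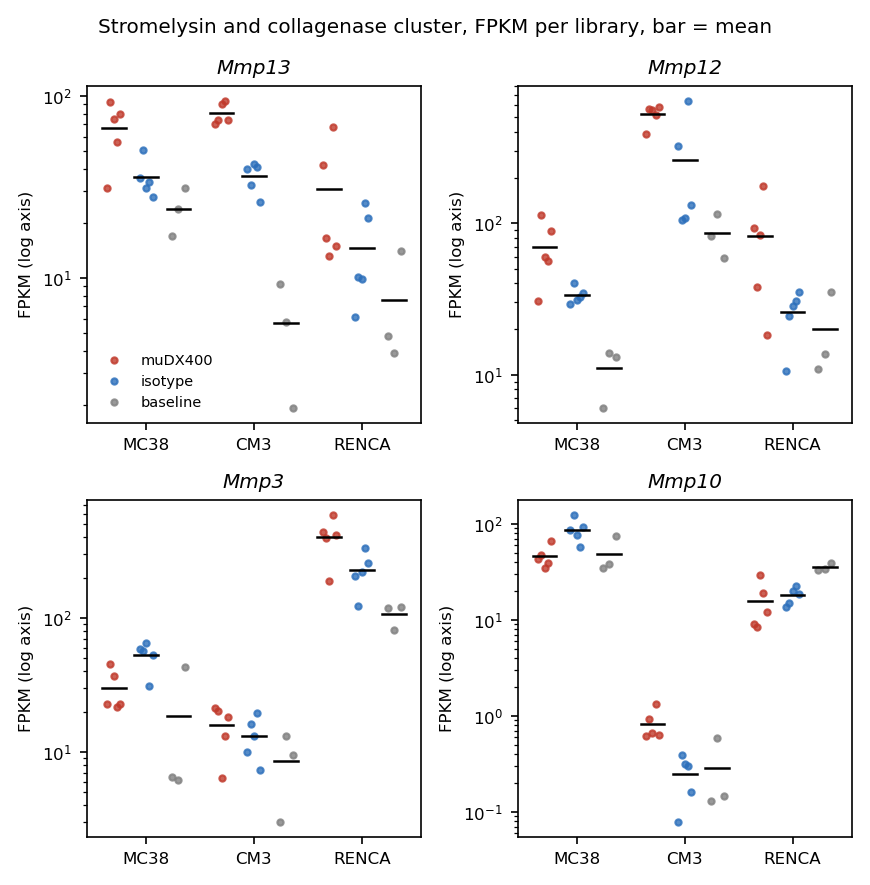
FPKM (log axis) of 4 chromosome 9 genes in MC38, CM3 and RENCA; each point is a library, 5 muDX400 (red), 5 isotype (blue) and 3 baseline (grey) per model, and the bar is the mean. In MC38 the muDX400 mean is 67.0 against 35.9 FPKM on isotype for Mmp13 and 46.2 against 86.8 FPKM for Mmp10.

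The calls of Timp3, Mmp25, Mmp23, Mmp19 and Mmp10 held in all 15 alternative settings, and those of Adamts2, Mmp12, Mmp13 and Mmp3 were each lost in some. Without muDX400 replicate 5, 10 members were called, against 33.2% of all genes. The differences were then 2.14 for Timp3, 2.17 for Mmp23, 1.22 for Adamts2 and −1.02 for Mmp10 log2 units, while Mmp12 (0.79, adjusted p = 0.054) and Mmp13 (0.74, adjusted p = 0.063) were no longer called. Without isotype replicate 1, 5 members were called in MC38, against 16.2% of all genes. Without isotype replicate 2 the count was 13, against 27.8%. The marker sums moved with these genes, in a model where 14.6% of all genes were called higher and 12.7% lower. Macrophage markers summed to 1156 to 2375 FPKM on muDX400 and 621 to 971 FPKM on isotype, with 6 of 8 genes called higher. Endothelial markers (7 of 7 higher) summed to 41.2 to 136 FPKM on muDX400 and 33.6 to 41.3 FPKM on isotype. Fibroblast markers (4 higher and 1 lower of 10) summed to 1561 to 3522 FPKM on muDX400 and 1107 to 2675 FPKM on isotype. T cell markers (7 of 7 higher) summed to 40.7 to 158 FPKM on muDX400 and 11.0 to 21.2 FPKM on isotype. Smooth muscle and pericyte markers (4 of 4 tested higher) summed to 71.2 to 266 FPKM on muDX400 and 50.5 to 68.4 FPKM on isotype. Mast cell markers (4 of 4 tested higher) summed to 6.42 to 34.0 FPKM on muDX400 and 3.26 to 5.46 FPKM on isotype. Adipocyte markers (3 of 4 tested higher) summed to 240 to 303 FPKM in 4 muDX400 libraries and 22.9 FPKM in replicate 5, against 8.95 to 69.9 FPKM on isotype. Replicate 5 was the lowest muDX400 library in all 7 sums. No gene of these lists was at 0 in all libraries of an arm, and those below FPKM 1 throughout an arm were Ms4a2 in both arms and Cpa3, Lep, Myh11 and Cnn1 on isotype. Their part in the MC38 differences was not tested.

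In RENCA, a transcriptome with few calls, 7 members rose and Mmp9 fell. The median difference was 0.69 over the 27 members tested and −0.06 over all genes, and 20 of the 27 were positive. The proteases that rose were Mmp19, Adamts15, Adamts2, Mmp2, Mmp23, Adamts4 and Mmp8.
Mmp19 held 84.0, 71.3, 42.9, 58.1 and 65.1 FPKM on muDX400, against 21.2, 13.6, 21.8, 29.9 and 21.8 FPKM on isotype. The arms did not overlap, and the rise was 1.53 ± 0.22 log2 units (SE, n = 5 each; adjusted p = 0.0062). Adamts4, an aggrecan- and versican-cleaving proteoglycanase, had 16.1, 14.6, 11.4, 20.0 and 13.6 FPKM on muDX400, against 6.44, 4.30, 6.91, 7.52 and 5.64 FPKM on isotype. It rose by 1.17 ± 0.19 log2 units with separate arms (adjusted p = 0.0091). Mmp2 had 389, 278, 137, 402 and 298 FPKM on muDX400, against 136, 70.4, 103, 143 and 88.2 FPKM on isotype. Its arms overlapped through muDX400 replicate 3, and the rise was 1.42 ± 0.29 log2 units (adjusted p = 0.029).

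The remaining RENCA risers had separate arms. Adamts15, another proteoglycanase, had 3.73 to 18 FPKM on muDX400, against 1.06 to 2.95 FPKM on isotype, a rise of 1.61 ± 0.38 log2 units (adjusted p = 0.046). Adamts2 had 12 to 36.8 FPKM on muDX400, against 4.77 to 11.8 FPKM on isotype (1.47 ± 0.31 log2 units, adjusted p = 0.031). Mmp23 had 9.85 to 26.4 FPKM on muDX400, against 4.38 to 7.73 FPKM on isotype (1.27 ± 0.26 log2 units, adjusted p = 0.029). In all 3 genes replicate 4 of muDX400 was the highest or nearly the highest library. Mmp8 had 2, 1.67, 1.09, 5.62 and 1.70 FPKM on muDX400, against 0.301, 0.316, 0.479, 0.665 and 0.318 FPKM on isotype, a rise of 1.15 ± 0.27 log2 units (adjusted p = 0.048).

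Mmp9 fell in RENCA while the other gelatinase, Mmp2, rose. It held 69.3, 35.5, 42.8, 104 and 48.2 FPKM on muDX400, against 690, 226, 187, 99.7 and 337 FPKM on isotype. The fall was 2.15 log2 units (SE 0.45; adjusted p = 0.030), and the arms overlapped through muDX400 replicate 4 and isotype replicate 4. Osteoclast markers, a list of 8 genes that includes the acid phosphatase gene Acp5, moved the same way. They summed to 227, 168, 341, 264 and 166 FPKM in the same muDX400 libraries, against 1100, 751, 413, 306 and 684 FPKM in the isotype libraries. Isotype replicate 1 was highest and replicate 4 lowest in both measures. Of 7 genes tested on that list, Acp5 (−1.76 ± 0.39), Oscar (−1.74 ± 0.30) and Dcstamp (−1.39 ± 0.30) were called lower, and Calcr stayed below FPKM 1 in both arms. Neutrophils, macrophages and cancer cells are other known sources of Mmp9. Neutrophil markers summed to 93.9 to 374 FPKM on muDX400 and 34.9 to 101 FPKM on isotype, and Csf3r, S100a8 and Il1r2 were the 3 of 6 tested genes called higher. Macrophage markers (1 of 8 higher, Mertk) summed to 1324 to 3157 FPKM on muDX400 and 938 to 2330 FPKM on isotype, which overlapped. Epithelial markers, which this kidney carcinoma line can itself express, had 0 of 4 tested genes called. They summed to 95.3, 177, 849, 144 and 83.2 FPKM on muDX400, against 627, 288, 411, 262 and 344 FPKM on isotype, so 4 of 5 muDX400 libraries lay below every isotype library. Camp stayed below FPKM 1 in both arms, and Ly6g, Ngp and Ltf did on isotype. The part of these lists in the fall of Mmp9 was not tested. In MC38, 5 of 5 osteoclast-list genes tested rose, with sums of 78.6 to 196 FPKM on muDX400 and 52.5 to 72.4 FPKM on isotype and Calcr at 0 in both arms. There Mmp9 was at −0.25 ± 0.14 log2 units (adjusted p = 0.20).

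The inhibitors in RENCA did not pass the threshold. Timp1 held 416, 507, 262, 390 and 404 FPKM on muDX400, against 251, 149, 217, 279 and 232 FPKM on isotype, a difference of 0.81 ± 0.20 log2 units (adjusted p = 0.063). Timp3 stood at 0.60 ± 0.19 log2 units and Timp2 at −0.10 ± 0.17. The chromosome 9 genes Mmp3 (0.81 ± 0.31), Mmp12 (1.35 ± 0.52) and Mmp13 (0.90 ± 0.49) were not called either, nor was Mmp14 (0.49 ± 0.19). A further 9 RENCA members had an unadjusted p below 0.05 without an adjusted call, all of them positive. With the called ones, 17 of 27 members had such a p, where 1823 of 12664 genes tested did. Fibroblast markers (1 of 10 higher, Thy1) summed to 1398 to 5433 FPKM on muDX400 and 913 to 2070 FPKM on isotype. Endothelial markers (3 of 7 higher) summed to 135 to 196 FPKM on muDX400 and 64.2 to 100.5 FPKM on isotype. Smooth muscle and pericyte markers (2 of 4 tested higher, Acta2 and Tagln) summed to 63.5 to 118 FPKM on muDX400 and 28.8 to 55 FPKM on isotype, with Myh11 and Cnn1 below FPKM 1 throughout the isotype arm. The endothelial and smooth muscle sums did not overlap between the arms, whereas the epithelial and neutrophil sums above did. The part of these lists in the rises was not tested.
The number of RENCA calls depended on single libraries. Without muDX400 replicate 3, the library with high epithelial and low fibroblast markers, it was 14 (13 higher and 1 lower), against 6.45% of all genes (3.98% higher and 2.47% lower). Then Mmp2 differed by 1.68, Adamts15 by 1.82 and Mmp9 by −2.06 log2 units. Timp1 (0.95 ± 0.18), Adamts7, Adamts14, Mmp3, Mmp14 and Mmp15 were called in addition, all higher. The number was 5 without isotype replicate 1, against 2.58% of all genes, and 3 without isotype replicate 2, against 2.23%. It was 4 without muDX400 replicate 4 (0.94%) or 5 (2.05%). It was 2 without isotype replicate 3 (1.2%) or 5 (0.813%) and without muDX400 replicate 1 (1.01%) or 2 (0.892%). Only Mmp19 and Adamts4 were called in all 15 settings.

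In CT26 a single member was called. Mmp2 held 13.9, 6.91, 18.2, 8.79 and 9.20 FPKM on muDX400, against 4.22, 4.12, 2.96, 5.64 and 3.43 FPKM on isotype, without overlap. The rise was 1.24 ± 0.22 log2 units, at an adjusted p of 0.046 that was past 0.05 in 10 of 15 alternative settings. No CT26 member was called without isotype replicate 1, 2, 3 or 5 or muDX400 replicate 1, 4 or 5. Of all genes 0.0331% to 0.141% were then called. Without isotype replicate 4, 2 members were called, against 1.02% of all genes. Fibroblast markers (0 of 9 called) summed to 716 to 1208 FPKM on muDX400 and 642 to 834 FPKM on isotype, which overlapped. Macrophage markers (1 of 8 higher, Cd68) summed to 1001 to 1144 FPKM on muDX400 and 758 to 918 FPKM on isotype, and smooth muscle and pericyte markers (1 of 4 tested higher, Acta2) to 31.4 to 36.4 FPKM on muDX400 and 21.7 to 31.3 FPKM on isotype. Neither of these pairs overlapped. Fap was below FPKM 1 throughout the isotype arm, and Myh11 and Cnn1 in both arms. Their part was not tested. The CT26 inhibitors stood at 0.00 ± 0.15 (Timp1), 0.09 ± 0.08 (Timp2) and 0.46 ± 0.22 (Timp3) log2 units.

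CM3 and MBT2, the other High models, had no call in the full set. In CM3, 24 of 27 members were positive, and the median was 0.48 over members and 0.13 over all genes. Mmp13 held 70.1, 74.1, 90.1, 93.6 and 74.2 FPKM on muDX400, against 39.6, 32.4, 42.1, 40.9 and 26.2 FPKM on isotype. The arms did not overlap (1.14 ± 0.15 log2 units), and the adjusted p was 0.10, the lowest of any gene in that model. The library labelled isotype replicate 4 held 40.9 FPKM, within the range of the other isotype libraries. Mmp12 had 390 to 586 FPKM on muDX400, against 322, 105, 108, 637 and 131 FPKM on isotype, so the library labelled isotype replicate 4 exceeded every muDX400 library. The same library led the isotype arm for Mmp19 (53.3 FPKM, against 5.08 to 15.6 FPKM in the other 4) and Adamts15 (8.13 FPKM, against 0.319 to 1.13 FPKM).
Without the library labelled isotype replicate 4, 17 of the 27 CM3 members were called, all higher. Of all genes 31.2% were then called, 19.9% higher and 11.2% lower. Mmp12 then differed by 1.80 ± 0.31, Mmp19 by 1.74 ± 0.25, Adamts15 by 1.49 ± 0.23 and Adamts2 by 1.40 ± 0.21 log2 units, and Timp2 and Timp3 were called at 0.66 ± 0.15 and 0.50 ± 0.15. With all 10 libraries the same differences were 1.38, 1.26, 1.03, 1.01, 0.47 and 0.43, and none was called. Among the isotype libraries that remain in the refit, replicates 2 and 3 had FPKM totals of 784500 and 885300. The other CM3 libraries at 8 days had 507300 to 531100. Matrix substrate genes summed to 740 and 516 FPKM in replicates 2 and 3, against 1455 and 1469 FPKM in isotype replicates 1 and 5. The part of these 2 libraries in the refit was not tested.

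In MBT2, Timp3 held 20.0, 14.5, 8.37, 15.8 and 12.8 FPKM on muDX400, against 4.60, 9.21, 6.03, 5.29 and 7.65 FPKM on isotype. The difference of 1.00 ± 0.21 log2 units had an adjusted p of 0.051, as did the 0.36 ± 0.08 of Adamts14, which also processes procollagens. Mmp25 had 5.78, 5.75, 1.45, 5.18 and 2.76 FPKM on muDX400, against 1.10, 1.69, 1.74, 1.38 and 1.12 FPKM on isotype (1.01 ± 0.26 log2 units, adjusted p = 0.056). In both Timp3 and Mmp25, muDX400 replicate 3 was the lowest of its arm. Without it, 5 of 22 members were called (Mmp25, Timp3, Adamts10, Mmp19 and Adamts14), all higher. Of all genes 20.7% were then called, 10.5% higher. Without muDX400 replicate 5 there was 1 call, higher, against 2.34% of all genes called higher. T cell markers summed to 60.4 to 182 FPKM on muDX400 and 41.4 to 85.3 FPKM on isotype in MBT2, and their part was not tested.

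In the Resistant models no difference passed. Mmp2 in LL2 had the largest: it held 1.61, 10.3, 4.71, 0.852 and 9.60 FPKM on muDX400, against 0.456, 5.07, 0.605, 0.618 and 2.16 FPKM on isotype (1.10 ± 0.53 log2 units, adjusted p = 0.31). Its arms overlapped widely. In TC1, Mmp3 held 31.4 to 52.9 FPKM on muDX400, against 24.3 to 30.4 FPKM on isotype, without overlap (0.47 ± 0.12 log2 units, adjusted p = 0.28). Leaving out muDX400 replicate 1 gave 1 call in TC1, against 0.321% of all genes. In B16F10, 3 of 20 members were positive, with Mmp2 at −0.51, Mmp23 at −0.47 and Mmp19 at −0.41 log2 units, all uncalled. Its fibroblast marker sum was 85.3 to 260 FPKM on muDX400 and 62.5 to 597 FPKM on isotype, and its part was not tested. In MB49, a Partial model, the arms of Adamts7, which cleaves matrix proteins such as Comp, did not overlap. It held 8.69 to 9.98 FPKM on muDX400, against 11.8 to 15.3 FPKM on isotype (−0.48 ± 0.08 log2 units, adjusted p = 0.14).

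**Figure D4:**
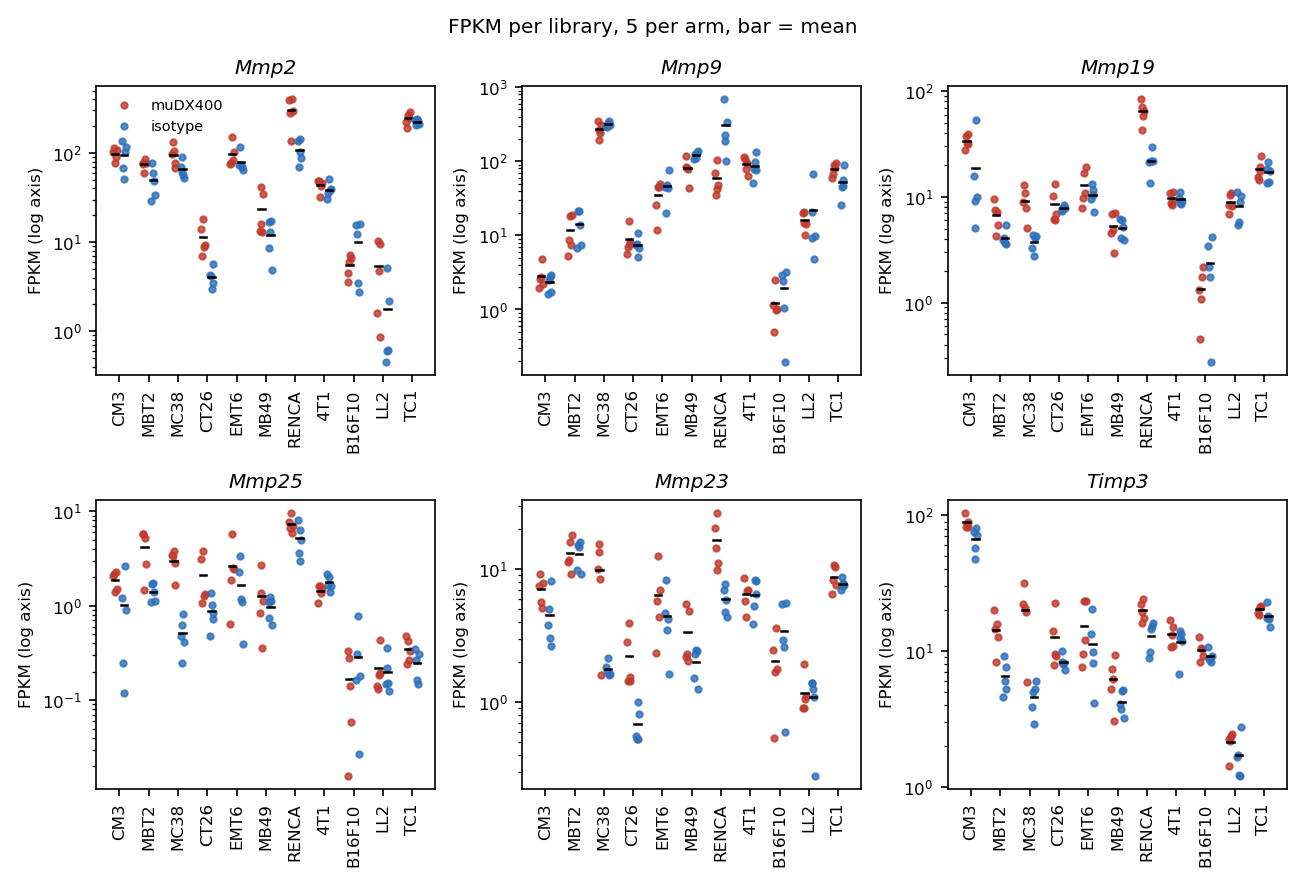
FPKM (log axis) per library of 6 members in all 11 models, ordered High, Partial, Resistant; points are the 5 muDX400 (red, left) and 5 isotype (blue, right) libraries and bars are means. Timp3 has the higher mean on muDX400 in all 11 models, and Mmp9 in RENCA drops to a mean of 59.9 FPKM on muDX400, against 308 FPKM on isotype.

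Averaged over the 11 models with equal weight, in 1 fit of the 110 libraries taken at 8 days, 15 of 33 members were called, all of them higher. The background was 23.1% of all genes called in either direction and 14.5% called higher. This fit uses the same libraries as the comparisons within models and is no separate evidence. Timp3 rose by 0.53 ± 0.08 log2 units (SE; adjusted p = 1.9e-07), with a positive difference in 11 of 11 models. The gelatinase Mmp2 rose by 0.54 ± 0.10 and Adamts15 by 0.57 ± 0.09, and Adamts2 rose by 0.47 ± 0.08. Mmp23, Mmp19 and Mmp25 rose by 0.47 ± 0.09, 0.42 ± 0.08 and 0.41 ± 0.07. Mmp2, Mmp19 and Mmp23 were each positive in 10 of 11 models tested, with B16F10 the exception.
Mmp12 rose by 0.43 ± 0.12, Mmp8 by 0.33 ± 0.07 and Mmp13 by 0.28 ± 0.10 log2 units. Smaller rises were those of Adamts4 (0.17 ± 0.05), Adamts12 (0.16 ± 0.06), Mmp15 (0.15 ± 0.05), Mmp27 (0.15 ± 0.05) and Mmp14 (0.13 ± 0.05). Timp1 (0.11 ± 0.07), Timp2 (0.03 ± 0.04), Mmp3 (0.18 ± 0.12) and Mmp9 (−0.26 ± 0.11, adjusted p = 0.087) were not called. The count was between 10, without RENCA, and 16, without B16F10, when 1 model was left out. It was 16 without the library labelled CM3 isotype replicate 4 (29% of all genes called), 14 without MC38 muDX400 replicate 5 (25%) and 16 without RENCA muDX400 replicate 3 (25%). Adamts7 was called as well without the CM3 library (0.12 log2 units) or the RENCA library (0.13), and Adamts12 was not called without the MC38 library (0.16, adjusted p = 0.051).

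Whether the muDX400 difference itself varied between models was tested by a moderated F test in the same fit. It passed for 21 of 33 members, where 32.4% of all genes passed. The largest F values were those of Adamts7 (6.44), Mmp16 (6.35), Adamts4 (5.12), Mmp19 (5.07) and Mmp10 (4.34). Adamts7 was highest in RENCA, at 1.06 log2 units, and lowest in MB49, at −0.48. Mmp10 stood at −0.89 in MC38 and at 1.18 in MB49, where its level was 0.895 to 5.37 FPKM on muDX400 and 0.0287 to 1.88 FPKM on isotype. Mmp9 (F 3.62) differed between models and Mmp12 (2.12), Mmp13 (2.13), Timp1 (2.33) and Timp2 (2.07) missed the threshold. Those that missed depended on single libraries. Without the library labelled CM3 isotype replicate 4, 27 of 33 members passed against 45.8% of all genes, among them Mmp12 (F 2.84), Timp1 (2.28) and Timp2 (3.75). Without RENCA muDX400 replicate 3, 27 passed against 38.5%, among them Mmp13 (2.43) and Timp1 (2.64). Without MC38 muDX400 replicate 5, 21 passed against 35.3%.

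With 1 value per model, the difference was also regressed on the response label, coded from 0 (Resistant) through 1 (Partial) to 2 (High). Of 30 members tested, Mmp25 was called, where 2.80% of all genes were. Its difference averaged 1.01 in the 3 High models (0.63 to 1.39), 0.43 in the 4 Partial models (0.14 to 0.66) and −0.05 in the 4 Resistant models (−0.18 to 0.11). The slope was 0.52 ± 0.08 log2 units per class (adjusted p = 0.024). Only 4T1 among the Resistant models passed the expression filter for Mmp25, and the other 3 had isotype means of 0.200 to 0.289 FPKM, where log2(FPKM + 1) compresses differences.
Timp3 came next at 0.44 ± 0.11 per class (adjusted p = 0.052), with class means of 1.07, 0.48 and 0.18 for High, Partial and Resistant, and Mmp19 followed at 0.50 ± 0.15 (adjusted p = 0.077). The trend count rested on single models: it was 0 without 4T1, B16F10, LL2, MC38 or TC1, 2 without CM3, MB49 or RENCA, and 7 without MBT2. Mmp25 was called without each of the 3 libraries that stood apart, at slopes of 0.56 without CM3 isotype replicate 4 (adjusted p = 0.0085), 0.55 without MC38 muDX400 replicate 5 and 0.52 without RENCA muDX400 replicate 3. Timp3 joined it without the CM3 library (0.45 ± 0.11, adjusted p = 0.049). The count was also 0 with a pseudocount of 0.1 or no filter. Levels gave no trend with class. Of 28 members at baseline and 29 in isotype tumours 0 were called, against 0% of all genes in both. No member had an unadjusted p below 0.05, where 431 of 14009 genes did at baseline and 640 of 13589 in isotype tumours. At baseline the smallest member p-values were those of Mmp3 (−0.998 ± 0.459 per class, unadjusted p = 0.050), Adamts8 and Mmp12. In isotype tumours they were those of Mmp12, Mmp13 and Adamts8.

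Genes of the surrounding protease system were followed from lists. Their counts stand beside 14.6% of all genes called higher and 12.7% lower in MC38. The shares were 2.28% and 0.284% in RENCA, and 0.289% higher in CT26. Plasminogen activation genes had 2 of 8 higher and 1 lower in MC38, with the urokinase gene Plau at 0.54 ± 0.15, the proprotein convertase gene Furin at 0.36 ± 0.07 and the inhibitor gene Serpine2 at −0.48 ± 0.15 log2 units. In RENCA, 2 of 11 were higher, and Serpine2 went the other way (1.81 ± 0.37) beside the urokinase receptor gene Plaur (0.72 ± 0.11). Of the ADAM and astacin proteases, 3 of 9 were higher in MC38 and 1 of 11 in RENCA, and Adam8, a leukocyte sheddase, was called in both (1.05 ± 0.13 and 1.24 ± 0.19). Of collagen cross-linking enzymes, 4 of 9 were higher in MC38 (Loxl1, Loxl2, Loxl3 and Tgm2) and 0 of 9 in RENCA.
Among the matrix substrates, 4 of 22 were higher and 1 lower in MC38, with the basement membrane gene Nid1 at 1.75 ± 0.40 and Lamc1 at −0.51 ± 0.12 log2 units. In RENCA 2 of 22 were higher, Nid2 (1.37 ± 0.31) and Tnc (1.71 ± 0.38), and in CT26 1 of 22, the elastin gene Eln (1.05 ± 0.19). Known inducers of MMP transcription had Tnf higher (0.85 ± 0.21) and Etv4 lower (−0.77 ± 0.15) of 16 tested in MC38. Of all genes 27.3% were called there. In RENCA 3 of 17 were higher, the AP-1 gene Fosl2 (0.82 ± 0.19) and the cytokine genes Il1b (1.10 ± 0.18) and Il11 (4.03 ± 0.59). Of the ADAMTS-like genes, Adamtsl4 (0.43 ± 0.10) was the 1 of 3 called in MC38, and 0 of 4 were called in RENCA.

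Isotype tumours were then compared with the untreated baseline tumours of the same model, 5 libraries against 3. These isotype libraries are the ones used above, so the 2 comparisons share them. In 9 of 11 models the sample numbers of the isotype and baseline libraries fall in different blocks, and there time, injection and block cannot be told apart. They share a block in B16F10 and RENCA, but estimated depth differed between the arms there and in TC1. In B16F10 it was 36.7 to 50.5 M fragments in baseline libraries and 9.96 to 22.25 M in isotype libraries. In RENCA it was 39.6 to 44.7 M and 16.7 to 19.4 M, and in TC1 37.5 to 39.6 M and 18.1 to 20.95 M. The part of depth in these differences was not tested. In all, 43 of 279 member and model pairs were called, 20 higher and 23 lower.
TC1 had 13 of 27 called against 37% of all genes, 3 higher (9.92% of all genes) and 10 lower (27.1%). With median-ratio scaling TC1 had 11 called, 5 of them higher, against 22.2% of all genes higher and 18.8% lower. LL2 had 7 of 24 against 27.1%, 2 higher (11.3%) and 5 lower (15.8%), and CT26 7 of 23 against 23.4%, 6 higher (4.4%) and 1 lower (19%). RENCA had 5 of 28 against 10%, 1 higher (1.76%) and 4 lower (8.25%). In CT26 most called members rose while most called genes fell, and so it was for the few calls in 4T1, MC38 and CM3 given next. With median-ratio scaling CT26 had 9 called, all higher, against 13.1% of all genes higher and 12.3% lower.
In 4T1 3 of 29 were called against 15.3%, all higher (4.61%), and in MC38 3 of 25 against 3.25%, all higher (1.4%). In EMT6 3 of 27 were called against 10.6%, all lower (7.69%, with 2.92% of genes higher). MBT2 had 1 of 23 against 22.4% (higher, 10.7%) and CM3 1 of 25 against 0.374% (higher, 0.107%). By the same limma test, MB49 had 0 of 27 against 1.89%. There 1 member had an unadjusted p below 0.05, as did 1387 of 12720 genes. B16F10 had 0 of 21 against 0.933% (0.0084% higher and 0.924% lower). There 0 members had an unadjusted p below 0.05, where 727 of 11901 genes did.

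**Figure D5:**
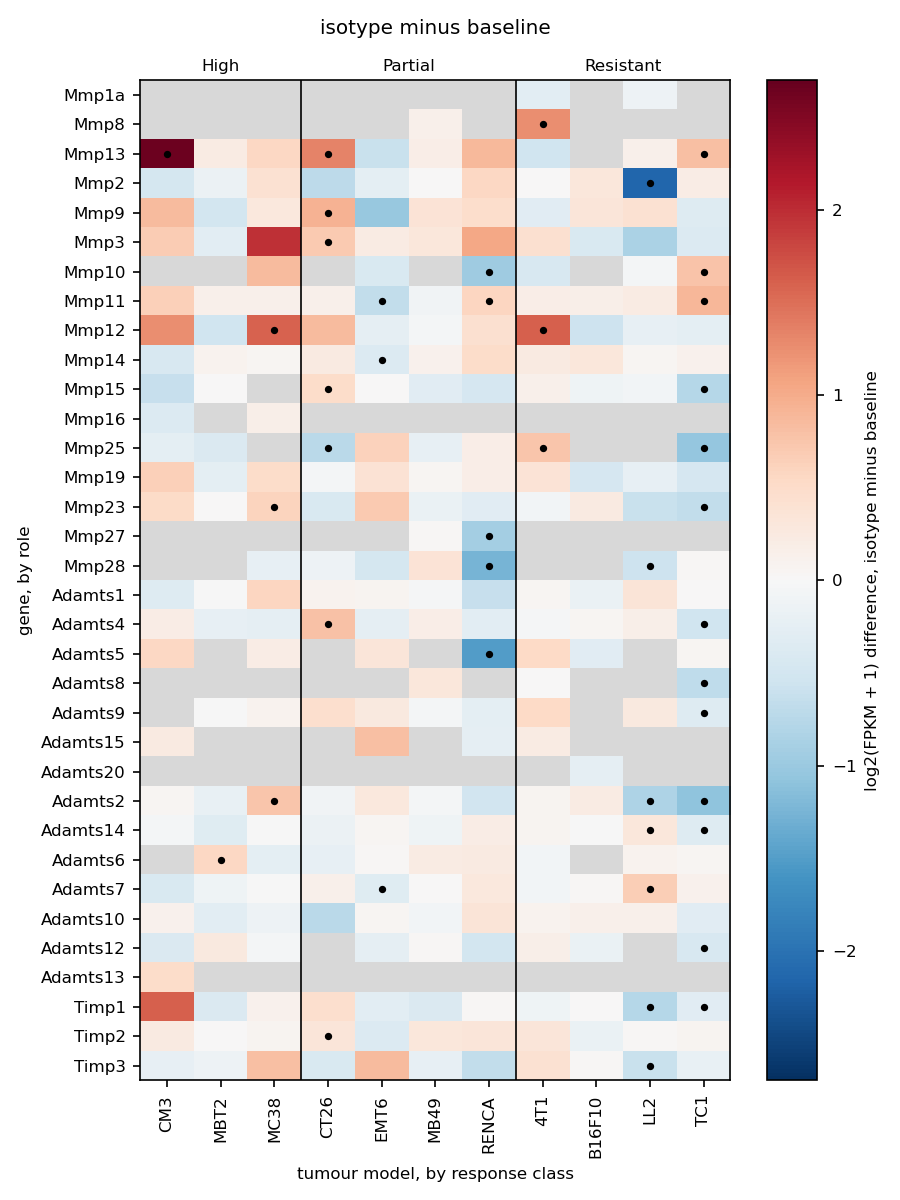
Difference in log2(FPKM + 1), isotype minus baseline, for each member tested (rows, by role) in each model (columns, by response class); red is higher and blue lower in isotype tumours, dots mark calls at an adjusted p of 0.05 or less, and grey cells were not tested. The TC1 column holds 13 dots, 10 of them blue, and Mmp13 in CM3 is the darkest red called cell at 2.64.

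Calls of the collagenases Mmp8 and Mmp13 and of the elastase Mmp12 were all in the higher direction. Mmp13 averaged 36.2 ± 6.78 FPKM in CM3 isotype tumours and 5.65 ± 3.69 FPKM in baseline tumours, a difference of 2.64 ± 0.37 log2 units (SE, n = 5 and 3; adjusted p = 0.027). It was also called higher in CT26 and TC1, with overlapping arms. Of 12 alternative settings, its CM3 call was lost in 8 and its CT26 call in 9. Mmp12 averaged 33.5 ± 4.21 FPKM in MC38 isotype tumours and 11.0 ± 4.37 FPKM in baseline tumours (1.59 ± 0.23, adjusted p = 0.0071), and it was called in 4T1 with overlap. Mmp8 in 4T1 averaged 1.86 ± 0.275 FPKM in isotype tumours and 0.203 ± 0.0424 FPKM in baseline tumours (1.25 ± 0.12, adjusted p = 0.00016). There Mmp25 also rose (0.74 ± 0.14). Of 9 neutrophil markers tested in 4T1, 8 were higher, and their sum was 176 to 380 FPKM in isotype tumours and 36.3 to 60.0 FPKM in baseline tumours; its part was not tested.
In CT26 the gelatinase Mmp9 averaged 7.48 ± 1.99 FPKM in isotype tumours and 3.34 ± 0.466 FPKM in baseline tumours (0.94 ± 0.19), and Adamts4 (0.79 ± 0.18), Mmp3 (0.70 ± 0.17) and Mmp15 (0.50 ± 0.12) also rose, as did Timp2 (0.33 ± 0.08). In MC38, Adamts2 (0.74 ± 0.14) and Mmp23 (0.60 ± 0.12) rose, and in MBT2 Adamts6 did (0.56 ± 0.14). Of 12 alternative settings, the call was lost in 7 for Adamts2, 9 for Mmp23 and 4 for Adamts6.

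Lower values in isotype tumours were found mainly in TC1, LL2 and RENCA. In LL2, Mmp2 held 0.456, 5.07, 0.605, 0.618 and 2.16 FPKM in isotype tumours, against 8.77, 11.0 and 8.70 FPKM in baseline tumours, without overlap (−2.15 ± 0.44, adjusted p = 0.0073). Adamts2 (−0.84 ± 0.14), Timp1 (−0.77 ± 0.10) and Timp3 (−0.61 ± 0.17) fell with it, while Adamts7 (0.67 ± 0.14) and Adamts14 (0.30 ± 0.07) rose. The Timp3 call was lost in 7 of 12 alternative settings. Fibroblast markers in LL2 (5 of 10 lower) summed to 719 to 876 FPKM in isotype tumours and 1137 to 1214 FPKM in baseline tumours. T cell markers (7 of 7 lower) summed to 0.60 to 3.23 FPKM in isotype tumours, where 6 of the 7 stayed below FPKM 1, and 17.1 to 24.5 FPKM in baseline tumours. Macrophage markers (1 higher and 2 lower of 8) summed to 265 to 464 FPKM in isotype tumours and 488 to 557 FPKM in baseline tumours. Smooth muscle and pericyte markers (3 of 4 tested lower) summed to 18.2 to 25.6 FPKM in isotype tumours and 28.7 to 32.5 FPKM in baseline tumours. The part of these lists was not tested.
In TC1 the largest falls were those of Adamts2 (−1.09 ± 0.19), Mmp25 (−1.04 ± 0.12), Mmp15 (−0.76 ± 0.15) and Adamts8 (−0.69 ± 0.18). Timp1 averaged 933 ± 85.2 FPKM in TC1 isotype tumours and 1145 ± 50.1 FPKM in baseline tumours (−0.30 ± 0.09). This call was lost in 8 of 12 alternative settings, median-ratio scaling among them. Mmp11, a stromelysin typical of stromal fibroblasts, rose with separate arms (0.90 ± 0.09, adjusted p = 0.0001), as did Mmp10 (0.77 ± 0.13). Endothelial markers in TC1 (6 of 7 lower) summed to 45.1 to 56.2 FPKM in isotype tumours and 98.6 to 176 FPKM in baseline tumours, and fibroblast markers (6 of 10 lower) to 1636 to 1837 FPKM in isotype tumours and 2202 to 3656 FPKM in baseline tumours. Neutrophil markers (4 of 4 tested lower) summed to 6.40 to 9.96 FPKM in isotype tumours, with Camp at 0, and 24.3 to 83.9 FPKM in baseline tumours. Macrophage markers (7 of 8 lower) summed to 313 to 558 FPKM in isotype tumours and 740 to 869 FPKM in baseline tumours. T cell markers (4 of 4 tested lower) summed to 1.77 to 3.59 FPKM in isotype tumours and 7.69 to 11.9 FPKM in baseline tumours. Their part in the TC1 differences, that of the leukocyte gene Mmp25 included, was not tested.
In RENCA, Adamts5, a major aggrecanase, held 3.75, 4.72, 6.62, 6.43 and 7.50 FPKM in isotype tumours, against 19.7, 18.6 and 15.9 FPKM in baseline tumours (−1.51 ± 0.22, adjusted p = 0.0038). Mmp28 (−1.25 ± 0.25), Mmp10 (−0.95 ± 0.18) and Mmp27 (−0.91 ± 0.18) also fell, and Mmp11 rose (0.59 ± 0.15). Epithelial markers in RENCA (3 of 5 lower) summed to 262 to 627 FPKM in isotype tumours and 861 to 877 FPKM in baseline tumours, without overlap, and their part was not tested. In EMT6, Mmp11 (−0.67 ± 0.13), Mmp14 (−0.37 ± 0.08) and Adamts7 (−0.33 ± 0.08) fell. Same-numbered EMT6 libraries had correlations of 0.16 to 0.31 in their deviations, but the labels do not say that the numbers pair tumours. With the numbers as a replicate block, 13 of 27 EMT6 members were called, 6 higher and 7 lower. Of all genes 21.8% were then called (10.6% higher and 11.1% lower). Neutrophil markers in EMT6 (5 of 6 tested higher) summed to 125 to 233 FPKM in isotype tumours and 58.5 to 89.8 FPKM in baseline tumours, and their part was not tested.

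Counts of this comparison moved with single libraries in several models. In 4T1 they were 8 without baseline replicate 3 (38.6% of all genes called) and 5 without isotype replicate 1 (11.1%). In EMT6 they were 0 without baseline replicate 2 (4.6%) or 3 (4.21%) and 8 without isotype replicate 5 (14.1%). LL2 had 4 without baseline replicate 2 (13.1%) and 11 without isotype replicate 5 (51%). RENCA had 1 without baseline replicate 1 (2.79%), 2 (2.97%) or 3 (3.24%). MC38 had 1 without baseline replicate 1 (1.05%) or 2 (1.24%) or isotype replicate 1 (1.61%) or 5 (1.8%). It had 5 without isotype replicate 3 (5.54%). The single CM3 call was lost without baseline replicate 2 or 3 (0.00764% each) or isotype replicate 1, 2, 4 or 5 (0.0535% to 0.267%). The MBT2 call was lost without baseline replicate 3 (11%) or isotype replicate 1 (14.7%) or 2 (14.1%). Exons of Timp3, Mmp11, Mmp19, Mmp28, Adamts4, Adamts7, Adamts8 and Adamts9 overlap exons of a gene on the other strand in GENCODE M21. Exon overlaps between members were not searched for. The spans of Mmp12 and Mmp1b, on opposite strands, overlap between positions 7368239 and 7369499 of chromosome 9. The kit keeps strand, but the strand used in counting is not given in the sources used here, so reads of these genes and their partners may not be told apart.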

How the data were processed

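FPKM values per Ensembl gene were deposited by the authors for 143 tumour RNA libraries (ribosome-depleted, stranded kit, 50-base paired ends, per the labels' protocols). Not given in the sources used here are the aligner, counter, annotation, strand setting and genome build behind the values. All 143 columns matched a sample label by its sample number, and 0 columns were left over. Symbols came from a table that paired 54079 of 54232 identifiers, and positions and overlaps from GENCODE M21 (GRCm38). Promoter sequences came from RefSeq (GRCm38.p6), which held 32 of the 46 members.

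Values were analysed as log2(FPKM + 1) with limma 3.58.1 (intensity trend) in R 4.3.3, 2-sided, with Benjamini-Hochberg adjustment over all genes tested and a threshold of 0.05. Within a model, genes at FPKM 1 in at least 5 of 10 libraries (muDX400 and isotype) or 3 of 8 (isotype and baseline) were tested. Pooled fits used 110 libraries (the mean effect and the difference between models) or 55 (isotype levels), and class trends used 11 model values. The procedure was tested on simulated data. FPKM carry no counts, so depth was estimated from the steps between low values and no counting intervals are given. Tables were handled in Python 3.11.15.

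Alternatives were a pseudocount of 0.1, no filter, median-ratio scaling, a replicate block, a spread shared over all 8-day libraries, and leaving out each library or model. Leaving 3 libraries with marker sums far from their arm out of the pooled fits and class trends, 1 at a time, was added after seeing the data. Same-numbered samples were checked for shared deviations from their group means. All pairs had a correlation above 0.1 in 0 of 11 models for muDX400 against isotype and in 1 of 11 for isotype against baseline (EMT6, 3 pairs, 0.16 to 0.31). MBT2 reached 0.489 in 1 pair of isotype against baseline, but not all its pairs passed 0.1. No label states a pairing, and 1 model passing such a screen does not establish one, so main fits used no block.

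The members, marker and pathway lists and naming rules were chosen with earlier results of these data known. Named were the 4 Timp genes, Mmp2, Mmp3, Mmp8, Mmp9, Mmp12, Mmp13 and Mmp14, all members called within a model for muDX400, up to 4 called members per direction with separate arms for isotype against baseline, pooled and class calls (or the 3 smallest p), and the 5 highest isotype levels per model.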

Additional observations from a re-analysis of the deposited data

Results flagged for a closer look

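Each set tested here was 1 gene in 1 group of 5 libraries. Among 253 such sets, 13 held a library whose distance from its nearest neighbour was large for the range of its group (Dixon's test at 95%). Chance alone flags about 1 in 20 sets, so 13 flags is near the number that chance gives. Timp genes gave 6 of them. Timp1 was 151 FPKM in EMT6 muDX400 replicate 5 and 1082 FPKM in TC1 muDX400 replicate 5. Timp2 was 143.7 FPKM in CT26 muDX400 replicate 3 and 141.2 FPKM in LL2 muDX400 replicate 2. Timp3 was 6.76 FPKM in 4T1 isotype replicate 1 and 1.418 FPKM in LL2 muDX400 replicate 1. Mmp14 was 215.9 FPKM in LL2 isotype replicate 5 and 102.3 FPKM in RENCA isotype replicate 2. Mmp2 was 117 FPKM in EMT6 isotype replicate 2, and Mmp27 was 0.291 FPKM in RENCA isotype replicate 1. Mmp3 was 66.2 FPKM in 4T1 isotype replicate 5 and 30.94 FPKM in MC38 isotype replicate 4. Mmp8 was 1.931 FPKM in CM3 isotype replicate 4, the library that stood apart in the macrophage and T cell markers of that model.

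The muDX400 difference varied between the 11 models for 21 of 33 members by the moderated F test of the difference itself. Of all genes 32.4% passed. Among MMPs the F values were 6.348 for Mmp16, 5.07 for Mmp19, 4.338 for Mmp10, 4.184 for Mmp23, 4.133 for Mmp25, 3.623 for Mmp9, 3.622 for Mmp27, 3.025 for Mmp8, 2.801 for Mmp2, 2.8 for Mmp15, 2.698 for Mmp14 and 2.504 for Mmp11. Among ADAMTS genes they were 6.441 for Adamts7, 5.124 for Adamts4, 3.87 for Adamts14, 3.502 for Adamts2, 3.498 for Adamts15, 3.225 for Adamts6, 2.543 for Adamts9 and 2.457 for Adamts1. Timp3 was the 1 inhibitor among them, at 3.636. Within models, Mmp16 passed the expression filter in 2 (CM3 and MC38) and Mmp27 in 1 (CM3), so their F values rest on few models.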

How the results depend on the processing

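No member called in a main fit had a difference or slope of the opposite sign under any alternative run. Signs of uncalled members were not compared, and F tests have no sign. For muDX400 against isotype, a spread shared over all 8-day libraries gave 16 calls in CM3 (41.2% of all genes called), 3 in MBT2 (1.49%), 1 in MB49 (0.439%), 18 in RENCA (16.2%) and 0 in CT26 (0.229%). Without a filter RENCA had 2 calls and CT26 0 (0.0772% of all genes). Median-ratio scaling gave CT26 2 (1.24%, against 0.339% in the main fit). With the replicate block, RENCA had 5 and CT26 0 (0%), where the samples share only a number. For isotype against baseline, median-ratio scaling gave 4T1 5 (14.9%), no filter gave MBT2 0 (7.46%), and a pseudocount of 0.1 gave CM3 0 (0.191%). The replicate block there gave 0 in CM3 (0%) and CT26 (5.63%), 1 in MC38 (0.578%) and 3 in RENCA (4.6%). It gave 13 in EMT6 (21.8% of all genes), where a pairing by number is not established. The class trend had 0 calls with a pseudocount of 0.1 or without a filter. The cause of these moves was not tested.

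Leaving out 1 library gave muDX400 counts of 0 to 17 in CM3, 0 to 2 in CT26, 0 to 5 in MBT2, 5 to 13 in MC38, 2 to 14 in RENCA and 0 to 1 in TC1. Of all genes, 0% to 31.2% were then called in CM3, 0.0331% to 1.05% in CT26 and 0% to 20.7% in MBT2. For isotype against baseline the counts are given with the share of all genes called. They were 2 to 8 in 4T1 (5.47% to 38.6%) and 0 to 1 in CM3 (0.00764% to 0.435%). MBT2 had 0 to 1 (11% to 28%), CT26 5 to 8 (14.8% to 30.3%) and EMT6 0 to 8 (4.21% to 14.1%). LL2 had 4 to 11 (13.1% to 51%) and MC38 1 to 5 (1.05% to 5.54%). RENCA had 1 to 7 (2.79% to 16.2%) and TC1 9 to 13 (27.4% to 37.3%). Leaving out 1 model gave 10 to 16 calls for the mean effect, 15 to 25 for differences between models and 0 to 7 for the class trend. Leaving out CM3 isotype replicate 4, MC38 muDX400 replicate 5 or RENCA muDX400 replicate 3 from these fits, a step added after seeing the data, gave 14 to 16, 21 to 27 and 1 to 2. Members below FPKM 1 are limited by depth and by the pseudocount.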
